A study of Homo sapiens with 21 samples.

Results

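HEK293T cells and OCI-AML3 cells were compared after 24 h in DMSO, the solvent of the ER stress inducer tunicamycin, with 3 replicates of each line. These 6 libraries were chosen by their labels from the 21 libraries of the series, which also hold both lines after tunicamycin for 24 h and OCI-AML3 cells at 0 h without treatment and at 4 h with DMSO or with tunicamycin. OCI-AML3 is a line from an acute myeloid leukaemia that grows in suspension and carries mutations of DNMT3A and NPM1. HEK293T is an adherent line from human embryonic kidney that was transformed with adenovirus DNA and also carries the large T antigen of SV40. No gene was edited in either group, and neither received tunicamycin. OCI-AML3 cells were kept in RPMI and HEK293T cells in DMEM, both with serum, so that the line and the medium cannot be told apart in this comparison. The sources used here name the replicates of a group but not whether they came from separate cultures, so p-values measure the spread between these libraries, which may be technical.

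The study follows how cells respond to stress of the endoplasmic reticulum (ER) in both lines. The comparison of the solvent controls asks what each line expresses without tunicamycin. The authors state that a rising density of OCI-AML3 cells can by itself induce ER stress in control cultures. Whether this occurred in these libraries was not tested. A myeloid cell is set up by transcription factors such as PU.1 (SPI1) and the C/EBP proteins, which turn on surface receptors, granule proteases and the parts of the oxidase that kills microbes. Proteins that enter the ER are folded by chaperones, oxidised by disulfide isomerases and glycosylated, and the unfolded protein response (UPR) raises this machinery through the sensors PERK, IRE1 and ATF6. Splicing is steered by SR proteins and hnRNPs, whose activity depends in part on the CLK and SRPK kinases that phosphorylate SR proteins.

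Values are counts scaled to the library total (CPM) after TMM scaling, a factor per library that removes differences in RNA composition. CPM are not divided by transcript length, so levels are compared between libraries and not between genes. The HEK293T libraries held 16851687 to 19961819 counts and the OCI-AML3 libraries 14595505 to 16657733, and log2 fold changes are given as HEK293T minus OCI-AML3. Errors after ± are SD over 3 libraries. Of 15628 genes tested, 4344 (27.8%) were called higher and 3565 (22.8%) lower in HEK293T cells, that is past an adjusted p of 0.05 (Benjamini-Hochberg) in edgeR's quasi-likelihood test and past 1 in either direction on the log2 scale. This is 50.6% of the genes tested, so a call by itself says little about a gene, and the counts of each group of genes below are to be read against these shares. The 3 libraries of one line did not overlap the 3 of the other for 86.2% of genes. The median log2 fold change of all genes was 0.10. Without TMM scaling it was 0.47, a shift of 0.37 that moved the calls that were higher from 54.9% to 66.0%. Mitochondrial genes took 2.48 to 2.52% of the counts in HEK293T libraries against 1.65 to 1.97% in OCI-AML3, and the 80 cytosolic ribosomal protein genes 7.11 to 7.31% against 10.6 to 12.3%. Genes poor in GC were higher in HEK293T cells and genes rich in GC lower, with median log2 fold changes of 0.76 and -0.42 in the deciles of lowest and highest GC content (1328 genes each). Values after correction for this trend are given beside most results whose call it changed, and the part of GC content in them was not tested.

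Of the 299 named genes, 109 overlap another annotated gene, and their reads may be divided with it, since the strand setting of the counting is not stated.

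Many genes were read in one line alone. Over its 3 libraries together, OCI-AML3 held at most 3 counts of 955 tested genes, 305 of them at 10 CPM or more in HEK293T cells, and HEK293T held at most 3 counts of 523, with 253 at 10 CPM or more in OCI-AML3. For such genes a fold is a lower bound against 3 counts over the group, or, for 1 to 3 counts, a ratio with a 95% interval that covers counting error only. PLS3, an actin-bundling plastin (chromosome X, 115561174 to 115650861), was read at 616, 602 and 648 CPM in the 3 HEK293T libraries and with 0 counts in every OCI-AML3 library, at least 8705-fold higher. IRS4, an adaptor of insulin and IGF1 receptors, reached 587, 596 and 608 CPM against 0 counts in OCI-AML3, at least 8354-fold higher. All 3 HEK293T libraries lay close together for both genes. Of the other 10 largest rises, APP, the amyloid precursor protein, was at least 4470.3-fold higher, and HEY1, a repressor downstream of Notch, at least 2522-fold. SLIT2, a secreted guidance cue, was 3847-fold higher with 4 counts in OCI-AML3, and ROBO1, a receptor for SLIT proteins, 1941-fold (617 to 8741) with 3. AKAP12, a scaffold of protein kinase A, had 1 count in OCI-AML3 and was 5595-fold higher (1084 to 238649). The remaining members of the 12 were DSG2, UCHL1, DSP, NCKAP1 and HOXD13, which are described with their groups.

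In the other direction, CTSG (cathepsin G, chromosome 14, 24573518 to 24576250), a serine protease of neutrophil granules, was read at 2185, 2232 and 2425 CPM in OCI-AML3 and had 0 counts in HEK293T, at least 48015-fold lower in HEK293T. ELANE, neutrophil elastase, stood at 459, 514 and 499.6 CPM against 1 count over the HEK293T libraries, a ratio of 30207 (5566 to 1224820.0). Both proteases were thus abundant in every OCI-AML3 library and at or next to 0 in every HEK293T library. ITGB2, the beta chain shared by the leukocyte integrins, reached 1642, 1564 and 1538 CPM and was at least 33284-fold lower in HEK293T, though reads of the overlapping antisense gene ITGB2-AS1 could not be told apart from it. The other 9 largest falls, with genes of at most 3 counts in HEK293T ranked at 3 counts, were SPN, the sialophorin CD43, MYBPH, a myosin-binding protein, LAMP5 and LAPTM5, both membrane proteins of lysosomal or endosomal type, SRGN, the proteoglycan core of granules, PTPN7, a haematopoietic phosphatase, ARHGDIB, a haematopoietic inhibitor of small GTPases, BST2, the interferon-induced tetherin, and NCF4, a subunit of the phagocyte oxidase. SRGN was at 0.0972 ± 0.0516 CPM in HEK293T against 1488 ± 96.6 in OCI-AML3, a ratio of 15305, and MYBPH was at least 22827-fold lower in HEK293T.

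Haematopoietic and myeloid genes divided the lines almost without exception. Of 53 genes in this list 49 were tested, of which 48 were lower in HEK293T and 1 was higher, with a median log2 fold change of -10.45 (-10.01 with genes at 0 counts set at their bounds) against 0.10 over all genes. Summed over the list, the level was 71.4 to 78.0 CPM in HEK293T libraries and 14319 to 14692 CPM in OCI-AML3 libraries. PTPRC, the leukocyte phosphatase CD45, was read at 320.2, 303 and 269 CPM in OCI-AML3 and with 0 counts in HEK293T, at least 6266-fold lower. NCF4 stood at 450.0, 460.2 and 509 CPM against 0 counts, at least 9957-fold lower. SPI1, which encodes PU.1, and CEBPA, which encodes C/EBPα, were chosen after their values were seen. SPI1 was at 285 ± 18.6 CPM in OCI-AML3 and 0.123 ± 0.107 in HEK293T, a log2 fold change of -11.06 (SE 0.21, adjusted p = 6.1e-23), and CEBPA at 885 ± 35.5 and 12.3 ± 1.2 (-6.17, SE 0.11). The one exception was KIT, the stem cell factor receptor, at 15.8, 13.5 and 15.2 CPM in HEK293T against 1 count over the OCI-AML3 libraries, a ratio of 622 (112 to 24623). The list's other 4 markers were too low to test. MPO, myeloperoxidase, had 14, 19 and 20 counts in the OCI-AML3 libraries, CEBPE had 2, 5 and 7, CD34 had 3, 1 and 2 against 7, 12 and 3 in HEK293T, and CD48 had 0 counts in all 6. The granule genes CTSG, ELANE, PRTN3 and AZU1 were thus far higher in OCI-AML3 than in HEK293T, while MPO was too low to test. CD14, a monocyte receptor chosen after its values were seen, moved with the time of culture, at 3.98 ± 0.787 CPM at 24 h, 0.499 ± 0.0645 at 4 h and 0.795 ± 0.147 at 0 h in OCI-AML3 against 0.436 ± 0.152 in HEK293T, and its log2 fold change went from -3.19 to -0.21 against the 4 h cultures.

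**Figure D1:**
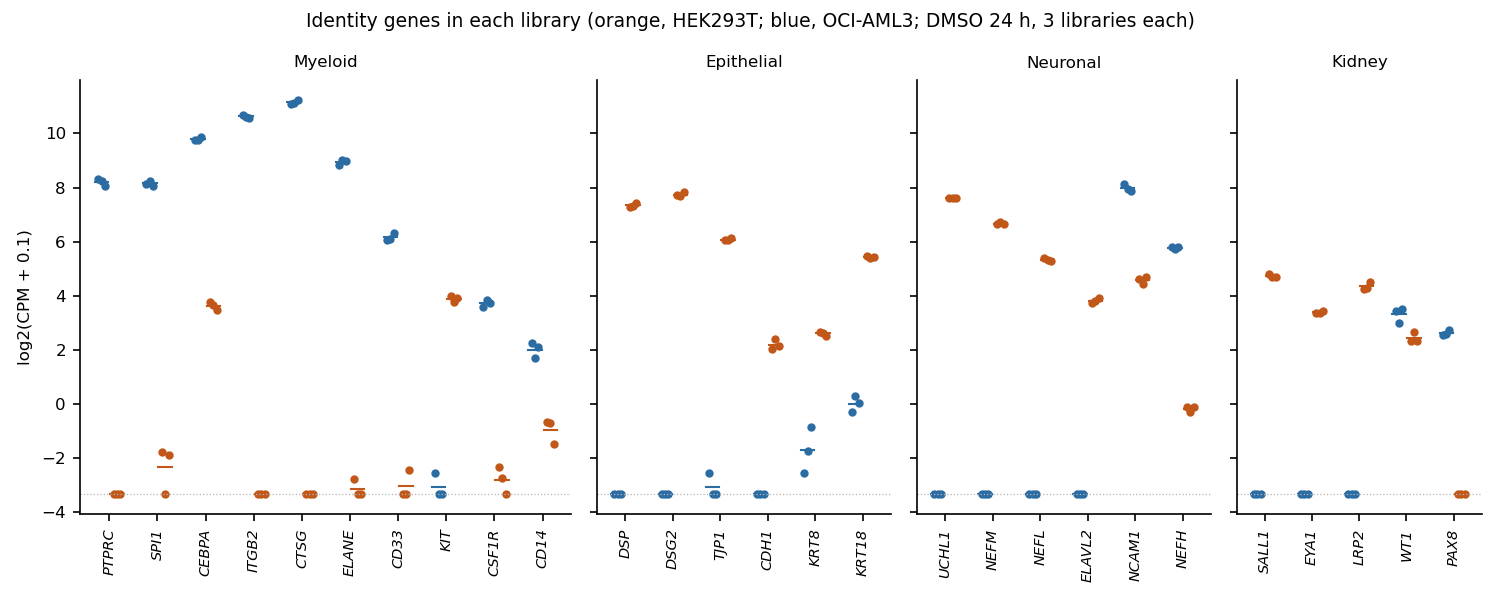
Level of identity genes in each library as log2 of CPM plus 0.1, with HEK293T libraries in orange, OCI-AML3 libraries in blue, a short line for each mean of 3 and a dotted line at 0 CPM. Myeloid genes other than KIT are higher in OCI-AML3, and most lie near the dotted line in HEK293T. CEBPA lies well above that line in HEK293T, and CD14 is low in both lines. The 6 epithelial genes plotted show the opposite order to these myeloid genes, and the neuronal and kidney genes hold members of either order.

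The promoters of some myeloid genes that carry a binding word of PU.1 or C/EBP are shown. These factors are themselves among the genes read in OCI-AML3 and at far lower levels in HEK293T. CD53, LCP2, NCF1 and VAV1 also held the PU.1 word and CD68 and GFI1 the C/EBP word, among others not shown. Sequences are from RefSeq on GRCh38.p14, 250 bases before to 50 after the start on the strand of the gene, with capitals for the words searched on both strands, GAGGAAGT for PU.1 and TTGCNCAA for C/EBP, which do not overlap each other here. PRTN3 (chr19:840749-841048, plus strand), proteinase 3, holds both, AZU1 (chr19:827587-827886, plus strand), azurocidin, holds the C/EBP word, and TYROBP (chr19:35908246-35908545, minus strand), the adaptor DAP12, and LCP1 (chr13:46182128-46182427, minus strand), L-plastin, hold the PU.1 word.
PRTN3: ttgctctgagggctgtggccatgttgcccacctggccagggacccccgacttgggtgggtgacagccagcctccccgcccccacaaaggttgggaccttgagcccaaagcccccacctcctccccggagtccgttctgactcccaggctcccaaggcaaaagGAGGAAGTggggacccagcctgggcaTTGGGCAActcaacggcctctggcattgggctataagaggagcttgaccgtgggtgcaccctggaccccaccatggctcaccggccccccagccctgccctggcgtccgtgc
AZU1: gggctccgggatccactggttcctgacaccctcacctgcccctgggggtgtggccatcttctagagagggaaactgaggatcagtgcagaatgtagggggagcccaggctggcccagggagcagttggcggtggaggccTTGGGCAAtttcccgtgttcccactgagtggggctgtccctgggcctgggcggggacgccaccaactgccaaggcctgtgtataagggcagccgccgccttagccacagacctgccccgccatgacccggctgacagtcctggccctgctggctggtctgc
TYROBP: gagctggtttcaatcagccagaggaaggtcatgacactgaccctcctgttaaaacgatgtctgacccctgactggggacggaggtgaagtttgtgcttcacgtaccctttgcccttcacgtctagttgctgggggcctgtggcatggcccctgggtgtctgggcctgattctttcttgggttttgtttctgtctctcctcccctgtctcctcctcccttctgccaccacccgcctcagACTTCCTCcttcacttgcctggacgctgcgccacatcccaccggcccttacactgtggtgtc
LCP1: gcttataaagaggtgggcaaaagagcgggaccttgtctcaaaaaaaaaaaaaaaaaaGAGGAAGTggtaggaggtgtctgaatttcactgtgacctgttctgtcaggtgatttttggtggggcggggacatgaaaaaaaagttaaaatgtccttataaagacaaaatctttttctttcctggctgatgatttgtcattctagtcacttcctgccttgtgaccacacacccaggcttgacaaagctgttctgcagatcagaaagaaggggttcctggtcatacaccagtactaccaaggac

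The PU.1 word lay in 7 of 50 promoters of the 38 myeloid genes matched (14%) and in 2.59% of all 35116 promoters of this length, and the C/EBP word in 4 (8%) against 2.61%. Words of other factors were searched in the same way, TGTGGTT of RUNX, in 4 of these promoters (8%) against 4.27% of all, ACATTCC of TEAD, in 2 (4%) against 3.46%, and AGATAAG of GATA, in 1 (2%) against 2.68%. Of the promoters of genes called lower in HEK293T 4.01% held the PU.1 word, of those called higher 1.88%, and of those with at most 3 counts over HEK293T 6.15%. For the other words the shares in genes called lower and higher lay closer together, at 2.38 and 1.77% for C/EBP, 3.42 and 3.17% for RUNX, 2.61 and 2.54% for TEAD and 1.94 and 1.93% for GATA. In the genes with at most 3 counts over HEK293T the words of RUNX, TEAD, GATA and C/EBP were more frequent too, at 5.69, 4.56, 3.42 and 5.92% against 3.16, 2.25, 1.62 and 1.87% of promoters of the tested genes, where PU.1 had 2.69%. These are matches of letters and not measured binding. PRTN3, AZU1 and TYROBP were chosen after their values were seen. PRTN3 was read at 157, 166 and 150.2 CPM in the OCI-AML3 libraries and 0.0919 ± 0.0872 in HEK293T, a log2 fold change of -10.59 (SE 0.24). AZU1 stood at 238, 272 and 286 CPM against 0 counts and TYROBP at 70.2, 76.2 and 83.5 CPM against 0 counts in HEK293T.

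Genes of the kidney stood on both sides, and several were at 0 in both lines. Of 25 genes of kidney and urogenital development 14 were tested, 10 of them higher and 2 lower in HEK293T. A gene at 0 in one line passed the filter only through the other and had to differ, so such counts describe the lists of identity genes and support nothing further. Under the study's filter of 1 CPM in 8 of all 21 libraries, most of them OCI-AML3, 2 kidney genes were higher and 2 lower. SALL1, a factor of nephron progenitors, was read at 28.2, 25.7 and 26.1 CPM in HEK293T with 0 counts in OCI-AML3, at least 373-fold higher, EYA1, a coactivator of kidney development, at least 146-fold and LRP2, the endocytic receptor megalin, at least 285-fold. These 3 genes had 0 counts in all 3 OCI-AML3 libraries. PAX8 and SLC12A3 went the other way. PAX8, a factor of renal tubule and thyroid, had 0 counts in HEK293T and 5.73, 5.97 and 6.64 CPM in OCI-AML3, and SLC12A3, the salt transporter of the distal tubule, was at 36.3 ± 1.86 CPM in OCI-AML3 against 2 counts in HEK293T. PAX8 overlaps its antisense gene PAX8-AS1. UMOD, AQP2 and CDH16, genes of nephron segments, had 0 counts in all 6 libraries, and WT1 and LHX1 were not called.

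Of the epithelial list, which holds junction proteins, keratins and other epithelial markers, 11 of 14 tested were higher in HEK293T and 2 lower, or 3 and 2 under the study's filter. DSG2 (desmoglein 2) was read at 209, 207 and 227 CPM and DSP (desmoplakin) at 155, 161 and 171 CPM in HEK293T, both with 0 counts in OCI-AML3, at least 2997-fold and 2274-fold higher. PKP2 (plakophilin 2), which links them, was at least 304-fold higher, and TJP1 (ZO-1) of the tight junction was at 67.5 ± 2.20 CPM against 1 count over the OCI-AML3 libraries. DSG2, DSP and PKP2, which are parts of the desmosome, were thus read in HEK293T alone. CLDN7 and MUC1, a claudin and a mucin, were higher in OCI-AML3 at 5.14 ± 0.860 and 4.46 ± 0.129 CPM, and EPCAM was too low to test, with 18, 14 and 22 counts in HEK293T. Neuronal genes divided between the lines, with 9 of 14 higher and 4 lower in HEK293T, or 2 and 4 under the study's filter. UCHL1, a ubiquitin hydrolase of neurons, was at 197, 197 and 196 CPM and the neurofilaments NEFM and NEFL at 102 ± 2.80 and 40.2 ± 1.71 CPM in HEK293T, all with 0 counts in OCI-AML3, as was ELAVL2. The third neurofilament, NEFH, was in contrast read at 56.4, 52.6 and 55.2 CPM in OCI-AML3 and 0.829, 0.714 and 0.824 in HEK293T, a log2 fold change of -6.10 (SE 0.11, adjusted p = 3.6e-23), and NCAM1, the adhesion molecule CD56, was 10.6-fold lower in HEK293T. ELAVL4, the neuronal RNA-binding protein HuD, also stood higher in OCI-AML3, at 6.16 ± 1.02 CPM.

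Of 29 lymphoid, erythroid and stromal markers 6 were high enough to test, 2 higher and 3 lower in HEK293T. PECAM1 (CD31), which myeloid cells also carry, was at 35.7 ± 4.41 CPM in OCI-AML3 against 1 count in HEK293T, and NKG7, a protein of cytotoxic granules, at 2.36 ± 0.366 CPM against 0 counts. The fibrillar collagens were divided, with COL1A1 at 11.1 ± 0.811 CPM and COL3A1 at 0.963 ± 0.0820 CPM in HEK293T, and COL1A2, whose chain pairs with that of COL1A1, at 21.2, 24.1 and 20.7 CPM in OCI-AML3 and with 0 counts in HEK293T. In bulk RNA, fewer cells with a gene and less RNA per cell cannot be told apart.

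The HOX genes, homeobox factors that lie in 4 clusters and set position along the body axis, were read from all 4 clusters in HEK293T and mainly from HOXA and HOXB in OCI-AML3. Of 34 tested, 27 were higher and 1 was lower in HEK293T, or 11 and 1 under the study's filter. The HOXD cluster (chromosome 2, 176092721 to 176190907) had 0 counts in all OCI-AML3 libraries for its 7 tested genes, whose summed level in HEK293T was 254 ± 4.00 CPM. The HOXC cluster (chromosome 12, 53938831 to 54056030) summed to 107 ± 4.17 CPM in HEK293T and 0.256 ± 0.155 CPM in OCI-AML3. HOXB (chromosome 17, 48528526 to 48728750) summed to 461 ± 5.51 against 117 ± 2.10 CPM. HOXA (chromosome 7, 27092993 to 27200091) was the nearest to equal, at 502 ± 5.24 against 435 ± 33.8 CPM. The order of the lines was thus the same in all 4 sums, and the libraries did not overlap in any.

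HOXD13, the last gene of the HOXD cluster, was at 131, 137 and 132 CPM in HEK293T, at least 1869-fold above OCI-AML3. Within HOXA and HOXB, the clusters read in both lines, the lines differed by gene. HOXB9 was read at 264, 263 and 263 CPM against 5.66, 6.64 and 5.94, a log2 fold change of 5.43 (SE 0.10, adjusted p = 5.3e-23), and HOXA5 at 77.7, 79.0 and 79.1 against 2.65, 3.72 and 4.86 (4.40, SE 0.13). HOXA9, a driver of leukaemia with NPM1 mutation, stood at 122, 121 and 118 CPM in HEK293T and 58.6, 51.5 and 67.5 in OCI-AML3, so it was higher in the kidney line (1.03, SE 0.08). That call lay at the threshold and was lost without HEK293T replicate 1 (1.00) or OCI-AML3 replicate 2 (0.93) and against the 4 h cultures (0.89). HOXB7 (1.04) was likewise lost without HEK293T replicate 3 (0.98) or OCI-AML3 replicate 2 (0.99). HOXA13, the last gene of HOXA, was the one member lower in HEK293T, at 37.7, 36.0 and 41.0 CPM against 114, 89.4 and 108 (-1.44, SE 0.09). HOXA10, HOXA11, HOXB2, HOXB3, HOXB4 and HOXB8 were not called, with log2 fold changes from -0.81 to 0.86. Many HOX genes overlap each other or antisense genes, HOXA9 and HOXA10 among them, and reads of such neighbours may be divided between them.

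**Figure D2:**
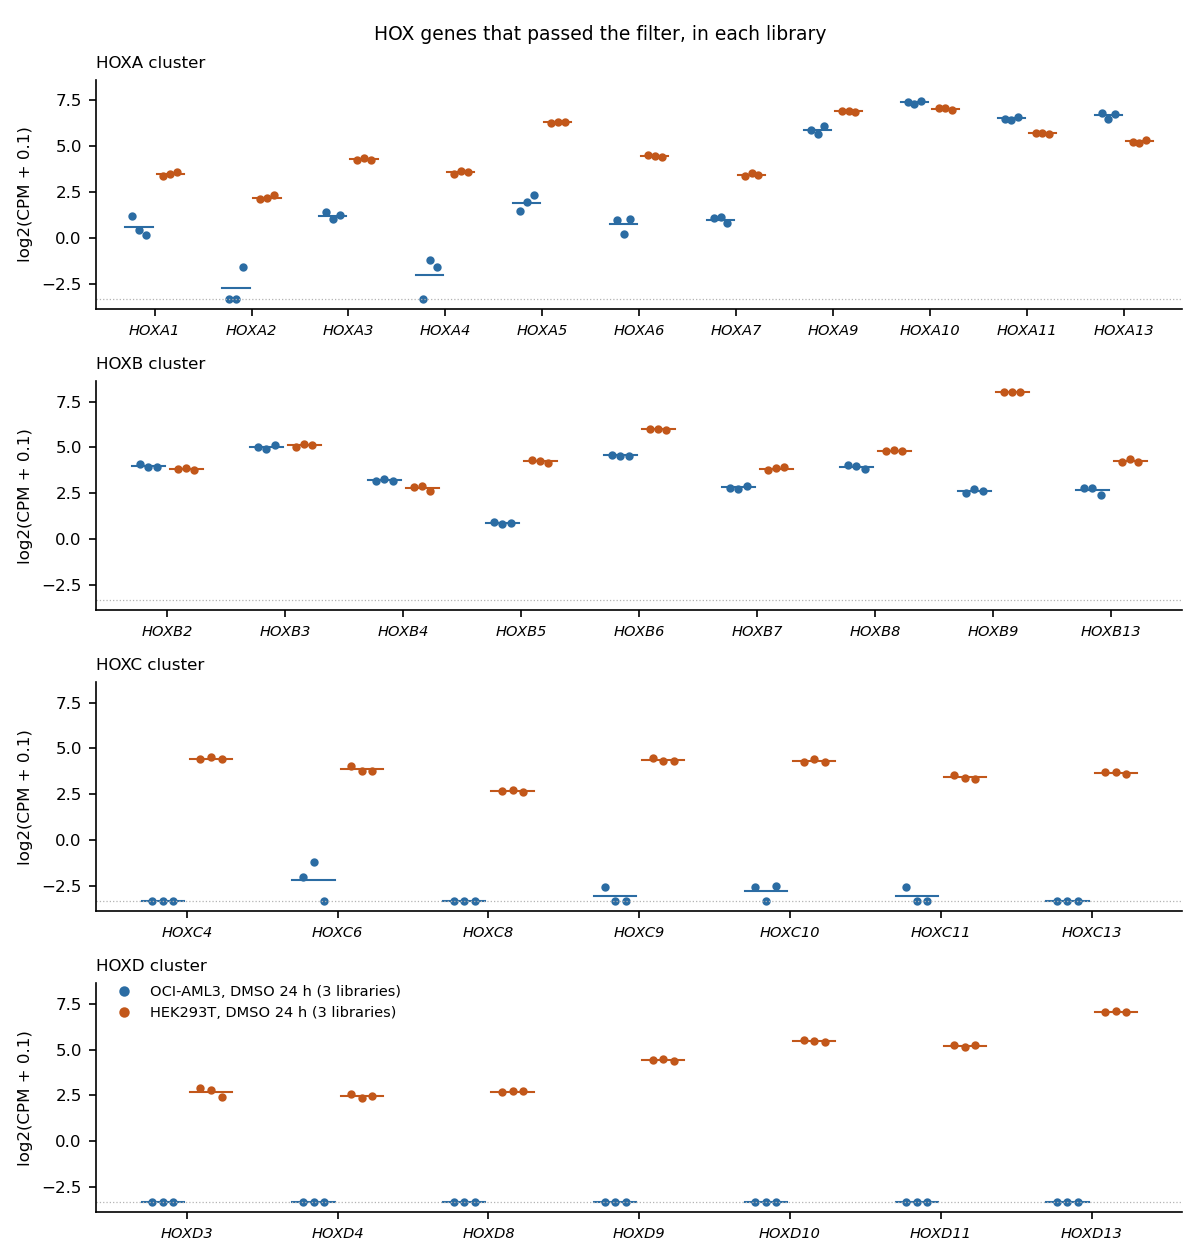
Level of each tested HOX gene in each library as log2 of CPM plus 0.1, in 4 panels by cluster with a shared axis, HEK293T in orange, OCI-AML3 in blue and a short line for each mean. The OCI-AML3 points lie at or near 0 CPM across the HOXC and HOXD panels and cross the HEK293T points within HOXA and HOXB.

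The TALE homeobox proteins, which bind DNA together with HOX proteins, gave 4 higher and 1 lower of 11 tested. MEIS2 was read at 26.1, 26.3 and 25.3 CPM in HEK293T and 2.29, 2.19 and 2.01 in OCI-AML3 (3.57, SE 0.15), PKNOX2 was 50.9-fold and MEIS3 4.09-fold higher. MEIS1, the partner of HOXA9 in leukaemia, was the member lower in HEK293T, at 15.6, 15.1 and 14.9 against 32.5, 28.8 and 31.5 CPM, a log2 fold change of -1.03 (SE 0.08) that passed the threshold by little and lost its call without OCI-AML3 replicate 1 (-0.99), against the 4 h cultures (-0.91) and without TMM scaling (-0.66). HEK293T thus held 2.03-fold more HOXA9 and 2.04-fold less MEIS1 RNA than OCI-AML3, both near the threshold.

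Extracellular matrix and adhesion genes gave 20 higher and 11 lower of 42 tested (median log2 fold change 0.89), with 7 lower against the 4 h cultures and 10 higher under the study's filter. The 4 members farthest on the side of HEK293T were a fibrillin of microfibrils and 3 chains of basement membranes. FBN2 (fibrillin 2) was at 74.7, 85.4 and 87.1 CPM, COL4A2 at 49.2, 49.3 and 49.3 and COL4A5 at 29.6, 30.1 and 35.4, and LAMA1, a laminin chain, at 19.1 ± 1.83 CPM, all with 0 counts in OCI-AML3. COL4A2 overlaps COL4A1. The cell surface receptors CD44 and ITGA5 stood on the side of OCI-AML3. CD44, the hyaluronan receptor, was read at 454, 411 and 419.9 CPM in OCI-AML3 and 0.149 ± 0.131 in HEK293T, a log2 fold change of -11.48 (SE 0.18, adjusted p = 1.7e-24). Of the alpha chains of fibronectin receptors in the list, ITGA5 and ITGA4 were 17.7-fold and 9.08-fold lower in HEK293T, and ITGAV, chosen after its values were seen, was 3.91-fold higher. Among YAP and TEAD genes, which respond to adhesion and stretch, 8 of 20 were higher and 6 lower. YAP1 was at 57.6, 60.1 and 60.2 CPM in HEK293T against 0.788, 1.66 and 2.7 in OCI-AML3 (5.12, SE 0.21), and its target CCN1 at 5.75 ± 0.339 against 0.0993 ± 0.119. DLC1, a GTPase-activating protein, had 0 counts in OCI-AML3 and 27.1 ± 1.44 CPM in HEK293T, while the target NT5E (CD73) was 163-fold and AXL 41.2-fold lower in HEK293T.

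Several families of actin and signalling proteins held paralogs that differed in opposite directions between the lines. The plastins PLS3 and PLS1, the latter at 36.3 ± 0.650 against 0.224 ± 0.210 CPM, were higher in HEK293T, and the leukocyte plastin LCP1 was at 1.07, 0.765 and 0.607 CPM in HEK293T against 863, 844 and 809 in OCI-AML3 (-10.01, SE 0.13). NCKAP1, the HEM subunit of the WAVE complex that starts actin branching, was at 144, 140.2 and 149 CPM in HEK293T with 0 counts in OCI-AML3. NCKAP1L, its haematopoietic paralog, was at 331, 327 and 309 CPM in OCI-AML3 and 0, 0.204 and 0.0434 in HEK293T. In the DOCK A family of Rac activators, DOCK1 was at 68.7 ± 1.06 CPM in HEK293T and 0 counts in OCI-AML3 and DOCK2 at 390.0 ± 23.9 CPM in OCI-AML3 and 3 counts in HEK293T, while DOCK5 was read in both lines, at 14 ± 0.970 and 65.8 ± 5.45 CPM, 4.69-fold lower in HEK293T. WASL (N-WASP) was 4.77-fold higher and WAS (WASP) 207-fold lower in HEK293T. Among the ENA/VASP proteins, which lengthen actin filaments, ENAH was 10.1-fold higher and VASP 8.75-fold lower, and EVL, 3.42-fold lower, was not called against the 4 h cultures (-0.99).

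Other families had a common member beside a haematopoietic one. RAC1 was at 187 ± 8.78 CPM in HEK293T and 230.2 ± 16.6 in OCI-AML3, whereas RAC2 was at 0.0622 ± 0.0213 against 427 ± 14 CPM (-12.56, SE 0.16) and RAC3 was 2.26-fold higher. ARHGDIA was 1.76-fold lower in HEK293T and not called, while ARHGDIB was read in OCI-AML3 alone, at 659, 663 and 697 CPM, and ARHGDIG in HEK293T alone, at 5.69 ± 0.243 CPM. Of the class I PI3-kinases, PIK3CA overlapped between the lines (-0.03, SE 0.14), PIK3CB was 4.43-fold and PIK3CD 38.1-fold lower in HEK293T, and PIK3CG was at 281, 255 and 239.8 CPM in OCI-AML3 with 0 counts in HEK293T. Among the Vav exchange factors VAV1 was 43.1-fold and VAV3 3.60-fold lower and VAV2 was not called (-0.31). The coronins, which bind actin filaments, ran from CORO1A, 186-fold lower in HEK293T at 5.62 ± 1.32 against 1047 ± 42.5 CPM, and CORO1B, 3.65-fold lower, through CORO1C, not called (0.33), to CORO2A and CORO2B, 4.93-fold and 7.55-fold higher. ITGB1 was not called (-0.79, or -1.34 and called after GC correction), and ITGB3, ITGB5 and ITGB7 were 3.09-fold, 3.15-fold and 119-fold lower in HEK293T, of which ITGB5 lost its call against the 4 h cultures (-0.50).

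**Figure D3:**
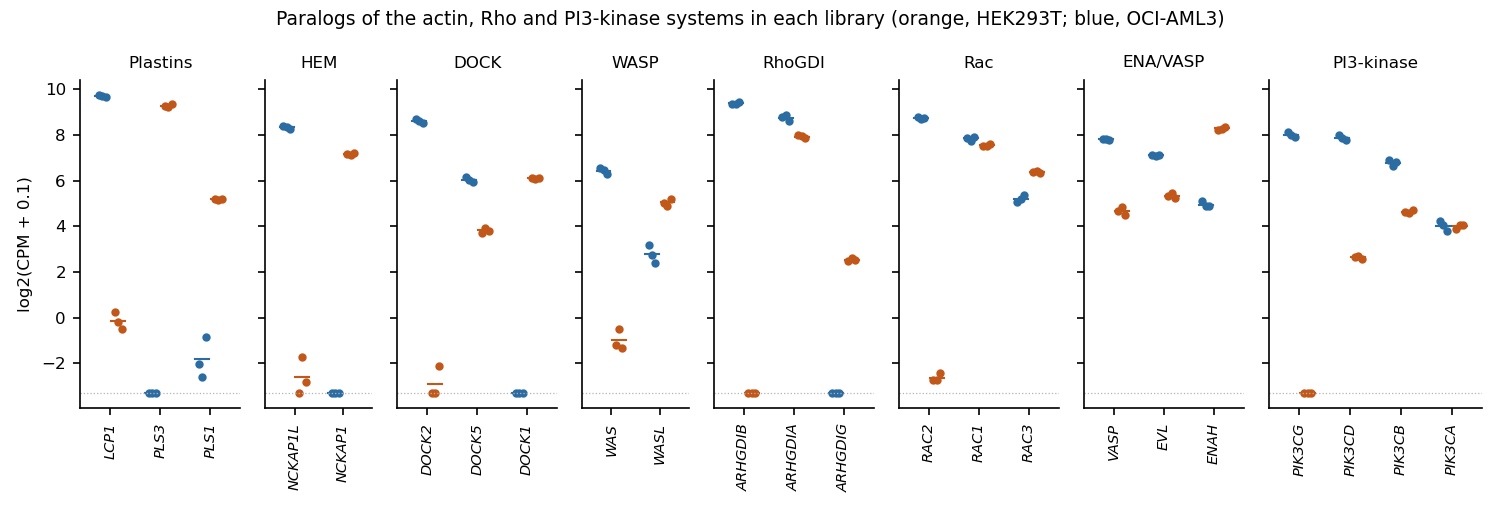
Level of paralogous genes in each library as log2 of CPM plus 0.1, grouped by family, HEK293T in orange, OCI-AML3 in blue and a short line for each mean of 3. In the plastin, HEM, DOCK and WASP families one paralog is high in HEK293T and low in OCI-AML3 and another the reverse, while RAC1, ARHGDIA and PIK3CA lie close together.

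Families of nuclear and cytoskeletal genes were also unequal. LMNA, the A-type lamin, was at 56.0, 55.5 and 52.1 CPM in HEK293T and 601, 599 and 545 in OCI-AML3 (-3.41, SE 0.08), while LMNB2 overlapped (0.06) and LMNB1 was not called (-0.80). TUBB2B, a beta-tubulin of neurons, was 114-fold and TUBB2A 5.69-fold higher, TUBB6 was 2.50-fold lower, and TUBB, TUBB3, TUBB4A and TUBB4B were not called. The stathmin STMN3 was 2.64-fold higher and STMN1 not called (-0.79). Of the GATA factors GATA2, GATA3, GATA4 and GATA6 were higher in HEK293T, and GATA2, which is also a haematopoietic factor, was at 31.5, 29.3 and 25.6 CPM there against 5.73, 5.04 and 4.71 in OCI-AML3 (2.48, SE 0.15). PAX6 was 30.2-fold higher, PAX2 at least 14.7-fold, and SOX2 and SOX9 at least 122-fold and 109.7-fold, whereas SOX4 and SOX12 overlapped between the lines. MYC was 2.51-fold and MYCL 2.50-fold lower in HEK293T. The calls of MYCL (-0.96) and TUBB6 (-0.83) were lost after GC correction, and those of MYC, MYCL and TUBB6 without TMM scaling (-0.96 each).

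Genes of antigen presentation were mostly lower in HEK293T, 17 of 23 tested, with 4 higher. Under the study's filter 17 were lower and 0 higher. PSMB8, a catalytic subunit of the immunoproteasome, was read at 233, 258 and 276 CPM in OCI-AML3 and with 1 count in HEK293T, a ratio of 15750.1 (2902 to 638638), and its partner PSMB9 at 123 ± 14.6 CPM against 0.352 ± 0.245. CTSS, a protease of the class II pathway, was 1355-fold and CD74, the invariant chain, 172-fold lower in HEK293T. The 4 higher genes were HLA-DQB1, at 8.05, 8.52 and 9.50 CPM in HEK293T with 0 counts in OCI-AML3, HLA-DMB, HLA-DRB1 and HLA-DPA1, at 3.68 ± 0.324, 1.78 ± 0.531 and 2.83 ± 0.228 CPM. These are class II genes, whose near-identical copies and alleles make the division of reads uncertain. Innate sensing and interferon genes were lower in HEK293T for 30 of 31 tested (median log2 fold change -8.18, or -5.88 with genes at 0 counts at their bounds), and IRF3 was the one not called. NLRP3, the inflammasome sensor, was at 213, 195 and 186 CPM in OCI-AML3, TLR2, a receptor for bacterial lipoproteins, at 106, 94.0 and 104 CPM, and the interferon-induced genes MX2 and OAS2 at 96.2 ± 2.59 and 86.8 ± 7.17 CPM. All 4 had 0 counts in HEK293T. NLRP3 was at least 4169.6-fold lower there and OAS2 at least 1826-fold.

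Targets of p53 were lower in HEK293T for 13 of 29 tested and higher for 3. CDKN1A, the cell cycle inhibitor p21, was at 17.1, 14.6 and 12 CPM in HEK293T and 163, 163 and 157 in OCI-AML3, a log2 fold change of -3.47 (SE 0.11, adjusted p = 1.6e-18). Its level in OCI-AML3 was 72.0 ± 7.20 CPM at 4 h and 83.2 ± 3.93 at 0 h, and it was called against both (-2.31 and -2.52). DDB2, a DNA repair protein, was 7.21-fold, PHLDA3 5.63-fold and BBC3 (PUMA) 4.49-fold lower. PMAIP1 (NOXA) went the other way, at 88.6, 86.8 and 87.7 CPM against 14, 13.4 and 12.3 (2.73, SE 0.09), as did SPATA18 and TIGAR, the last not called against the 4 h cultures (0.96). Replication and E2F target genes differed little, with 32 of 42 not called, 7 higher and 3 lower, and 4 higher against the 4 h cultures. CDKN2A, the INK4A and ARF locus, was at 259, 261 and 214 CPM in HEK293T and 8.67, 9.09 and 12.9 in OCI-AML3 (4.59, SE 0.15), and CDKN2B was 7.37-fold higher. Among the enzymes of nucleotide supply TK1 was 3.44-fold and TYMS 2.08-fold lower. CDT1, a licensing factor, was 2.67-fold lower at 24 h but not called against the 4 h cultures (-0.45), and CDT1 (-0.89) and TYMS (-0.93) were lost after GC correction, which left 1 of the 3 lower calls.

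The folding machinery of the ER serves secreted and membrane proteins. Of 54 ER chaperones and folding enzymes 31 were not called, 9 were higher and 14 lower in HEK293T. The median log2 fold change was -0.18, or 0.19 without TMM scaling, where 4 were lower. Against OCI-AML3 at 4 h and 0 h the median was -0.46 and -0.48. After GC correction 8 were higher and 10 lower. HSPA5 (BiP), the main chaperone of the ER lumen, was read at 442, 455 and 459 CPM in HEK293T and 436, 417 and 425 in OCI-AML3, a log2 fold change of 0.09 (SE 0.06, adjusted p = 0.17). The ranges were close but did not overlap. HYOU1, a partner of BiP, stood at 194, 193 and 192 against 157, 161 and 132 CPM (0.36, SE 0.08), and DNAJB9, a BiP cochaperone, at 9.82 ± 0.0492 against 8.26 ± 0.490 (0.25, SE 0.12, adjusted p = 0.056). HSP90B1 (-0.03) and CANX (0.02), chosen after their values were seen, were near 0 on the log2 scale, and CALR, also so chosen, was -0.68. Among the oxidases, ERO1B, a sensitive UPR target, was 2.66-fold higher in HEK293T (1.41, SE 0.12, or 0.62 and not called after GC correction) and ERO1A overlapped (-0.03).

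The prolyl and lysyl hydroxylases, which prepare procollagen, included the largest rise of the list, with others lower. PLOD2, a lysyl hydroxylase, was at 84.4, 76.9 and 85.6 CPM in HEK293T and 1.58, 0.597 and 1.39 in OCI-AML3 (6.13, SE 0.18, adjusted p = 2.1e-18). PLOD3, its paralog, was at 39.9, 44.6 and 37.1 against 216, 238 and 205 (-2.44, SE 0.10). P4HB, a disulfide isomerase that is also the beta subunit of prolyl hydroxylase, was at 427, 434 and 419 CPM in HEK293T and 2341, 2357 and 2258 in OCI-AML3, 5.44-fold lower (adjusted p = 1.3e-19). The peptidyl-prolyl isomerases FKBP14, PPIC and FKBP10 were 9.03-fold, 9.04-fold and 5.48-fold higher, and QSOX1, a sulfhydryl oxidase, was 12.8-fold lower in HEK293T.

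The ER stress response element (ERSE), through which ATF6 and XBP1 raise chaperone genes, was found in 9 of 64 promoters of the 49 ER chaperone genes matched (14.1%), against 0.0769% of all promoters of this length. The genes were CALR, CANX, CRELD2, ERO1B, HSP90B1, HSPA5 and PDIA6. The element was searched on both strands by its ends, CCAAT and CCACG with 9 unspecified bases between them. Those of HSPA5 (chr9:125241294-125241593, minus strand), whose level was close in the lines, and XBP1 (chr22:28800520-28800819, minus strand) are shown, with the element in capitals. A second promoter of XBP1 (chr22:28800028-28800327, minus strand) did not hold these letters and is not shown. The promoters are from RefSeq on GRCh38.p14.
HSPA5: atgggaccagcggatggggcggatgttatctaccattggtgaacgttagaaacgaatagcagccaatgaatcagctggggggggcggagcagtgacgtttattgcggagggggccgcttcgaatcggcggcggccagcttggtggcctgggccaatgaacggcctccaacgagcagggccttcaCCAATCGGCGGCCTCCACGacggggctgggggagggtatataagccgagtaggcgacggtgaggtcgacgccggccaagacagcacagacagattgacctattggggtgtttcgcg
XBP1: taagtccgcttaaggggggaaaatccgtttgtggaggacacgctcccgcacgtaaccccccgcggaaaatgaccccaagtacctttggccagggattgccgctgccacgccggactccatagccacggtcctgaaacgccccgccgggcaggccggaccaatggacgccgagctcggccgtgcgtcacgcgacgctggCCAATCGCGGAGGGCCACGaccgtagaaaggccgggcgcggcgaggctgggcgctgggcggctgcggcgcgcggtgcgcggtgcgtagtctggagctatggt

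Of the 7 chaperone genes with the element 1 was called, ERO1B. The log2 fold changes of PDIA6 and CRELD2, chosen after their values were seen, were -0.30 and -0.47.

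For entry into the ER and N-glycosylation, the step that tunicamycin blocks, 37 of 53 genes were not called, 10 were higher and 6 lower, with 1 lower without TMM scaling and 2 after GC correction. TUSC3, a subunit of the oligosaccharyltransferase, was at 39.0, 43.7 and 41.3 CPM in HEK293T with 0 counts in OCI-AML3, at least 579-fold higher. SEC61A2, a form of the translocon channel, was 5.97-fold higher and ALG6 and ALG14, which build the glycan on its lipid carrier, 4.43-fold and 4.26-fold. SSR2, a subunit of the translocon-associated complex, was 2.90-fold lower, and ALG3, SRPRA and TMEM258 were lower by smaller factors, of which ALG3 (-0.73) and SRPRA (-0.89) were not called after GC correction and TMEM258 (-0.73) not against the 4 h cultures. In ER to Golgi transport 45 of 55 were not called, 6 were higher and 4 lower, with 12 higher without TMM scaling and 3 after GC correction. TMED5, a cargo receptor, was 4.33-fold, SEC31B, a coat protein, 3.92-fold and KDELR3, which returns chaperones to the ER, 2.42-fold higher. COPZ2, a coatomer subunit, was at 28.8 ± 1.63 CPM in OCI-AML3 and 0.0799 ± 0.0767 in HEK293T, and the coat proteins SEC23B and SEC24D were 3.66-fold and 3.90-fold lower. USO1 (0.64) and COPE (-0.53) lost their calls after GC correction.

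Genes of ER-associated degradation were not called higher in any case under the main scaling, with 7 of 37 lower and 30 not called. The median log2 fold change was -0.45, or -0.09 without TMM scaling, where 3 were higher. Against OCI-AML3 at 4 h and 0 h the median was -0.28 and -0.29. EDEM1, which directs misfolded glycoproteins to degradation, was read at 45.4, 44.5 and 49.8 CPM in HEK293T and 298, 262 and 272 in OCI-AML3 (-2.57, SE 0.08, adjusted p = 2e-19). HERPUD1, which gathers the degradation complex, stood at 33.6, 31.2 and 34.9 against 185, 182 and 208 (-2.53, SE 0.07), and its paralog HERPUD2 and the conjugating enzyme UBE2J1 were 3.05-fold and 3.24-fold lower. The libraries of the lines did not overlap for these 4 genes.

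**Figure D4:**
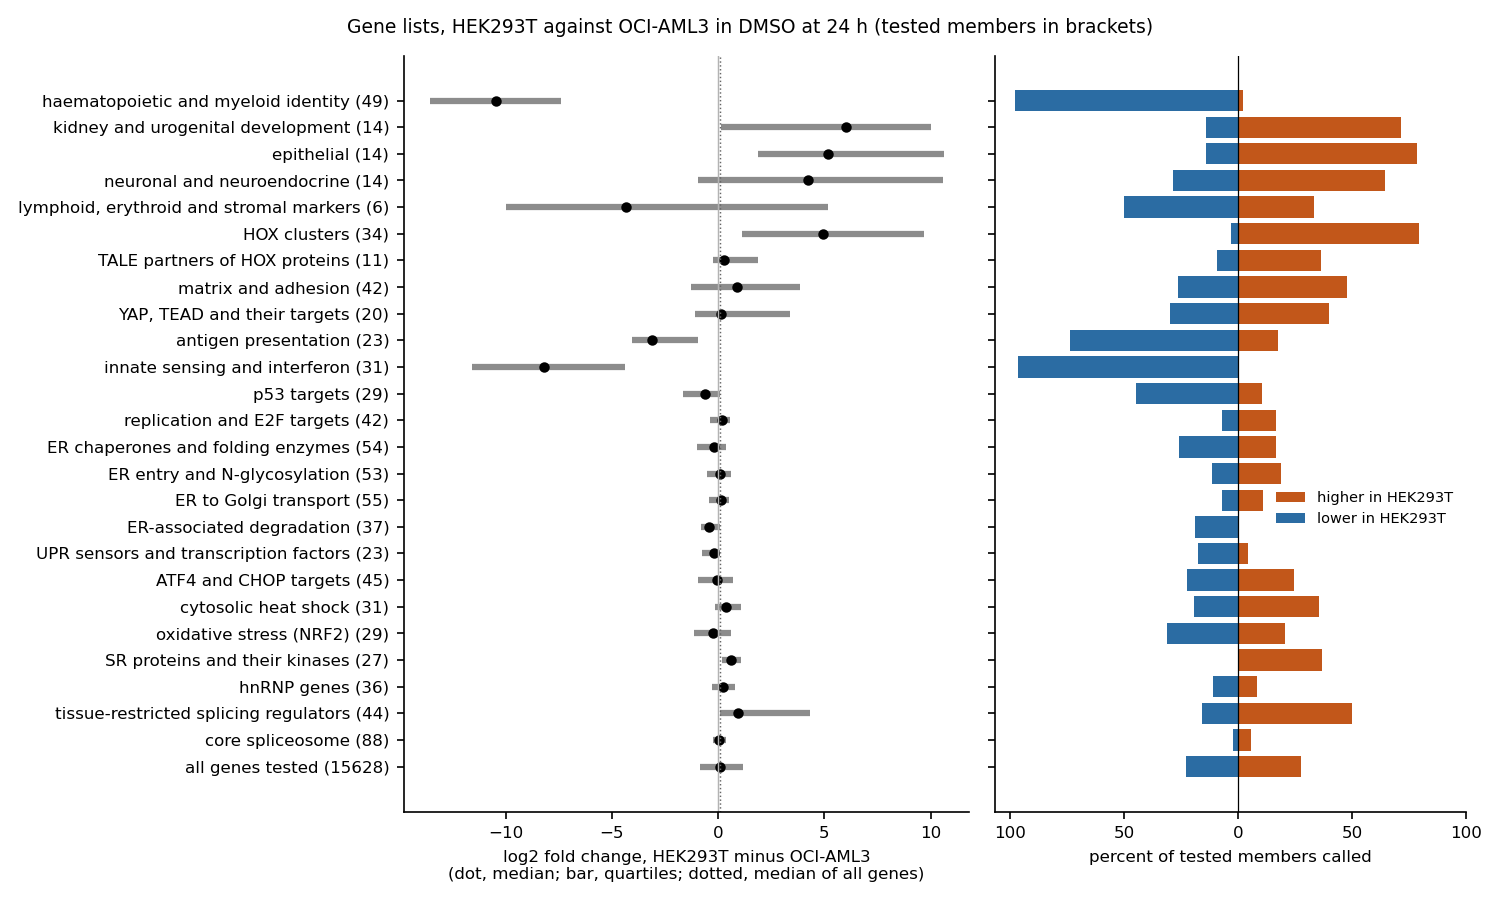
Left, the median log2 fold change of HEK293T minus OCI-AML3 in each list of genes (dot) with its quartiles (bar) and the median of all genes tested (dotted line). Right, the percent of tested members called higher (orange) and lower (blue) in HEK293T, which can be read against 27.8% and 22.8% over all genes. Identity lists lie far from the dotted line, and most secretory and splicing lists lie near it. Exceptions against the 24 h cultures are the tissue-restricted splicing regulators (0.95), the SR proteins (0.61) and the genes of ER-associated degradation (-0.45). Some of the tissue-restricted regulators passed the filter only through HEK293T. Against OCI-AML3 at 4 h the median of ER-associated degradation was -0.28, and those of ER chaperones and UPR genes were -0.46 and -0.52.

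The sensors of the UPR were expressed in both lines. Of 23 genes of the sensors and their transcription factors 18 were not called, with 1 higher and 4 lower. The median log2 fold change was -0.21, or 0.15 without TMM scaling and -0.36 after GC correction. Against OCI-AML3 at 4 h and 0 h the median was -0.52 and -0.61. EIF2AK3, which encodes PERK, overlapped between the lines at 16.8, 14.9 and 14.5 and 14, 15 and 13.5 CPM (0.12, SE 0.09, adjusted p = 0.22). ATF4, the factor translated after PERK acts, was at 539.7, 544 and 541 CPM in HEK293T and 399.5, 434 and 463 in OCI-AML3 (0.32, SE 0.08). XBP1, the factor spliced by IRE1, was at 104, 98.6 and 96.6 against 192, 189.8 and 204 (-0.97, SE 0.08), just short of the threshold, and passed it after GC correction (-1.33) or without HEK293T replicate 1 (-1.02). DDIT3 (CHOP) was -0.80 (SE 0.13) and overlaps its neighbours MARS1 and MBD6. ATF3 was the factor called higher, at 19.1, 18.1 and 17.5 CPM in HEK293T and 2.94, 2.99 and 2.39 in OCI-AML3 (2.71, SE 0.15). ATF6B was 3.00-fold lower in HEK293T, the CREB3 family members CREB3L2 and CREB3L4 were 2.34-fold and 6.20-fold lower, and CREB3 was not called (0.40). The call of CREB3L2 was lost without TMM scaling.

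Targets of ATF4 and CHOP were divided evenly, 11 higher, 10 lower and 24 not called of 45 (median log2 fold change -0.05, or 0.32 without TMM scaling). Among the higher, SLC7A11, the cystine transporter, was at 31.8, 36.7 and 40.0 CPM in HEK293T and 2.51, 2.59 and 1.39 in OCI-AML3 (4.04, SE 0.20), and PHGDH, the first enzyme of serine synthesis, at 381, 392 and 367 against 69.5, 84.1 and 68.2 (2.36, SE 0.08). Among the lower, SLC1A4, a transporter of neutral amino acids, was at 8.58, 9.69 and 9.07 against 260.0, 253 and 238 CPM (-4.78, SE 0.08), ADM2, a secreted peptide, was 22.2-fold and JDP2, a bZIP repressor, 13.1-fold lower. CHAC1, a glutathione-degrading enzyme and marker of the PERK branch, was low and overlapped, at 2.24, 3.06 and 2.26 CPM and 3.01, 4.11 and 5.02 CPM (-0.68, SE 0.21). No common direction thus held over the targets of this branch.

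For several stress genes the difference between lines depended on which OCI-AML3 culture was taken as the reference. HEK293T was read at 24 h only, and the comparisons with OCI-AML3 in DMSO at 4 h and untreated at 0 h use the same 3 HEK293T libraries, so they are not independent. Against them 25.5% and 26.1% of genes were higher and 20% and 20.1% lower. Of 839 list members tested, 406 were called at 24 h, 337 of them in the same direction against all 3 references, 60 at 24 h and against neither other reference, and 2 in opposite directions, DDIT4 and ENO2. DDIT4, an mTOR inhibitor induced by ATF4 and by hypoxia and chosen after its values were seen, was at 104, 99.9 and 91.0 CPM in HEK293T, and in OCI-AML3 at 283 ± 24.7 at 24 h, 13.7 ± 4.68 at 4 h and 13.1 ± 0.581 at 0 h. It was thus called lower than the 24 h cultures (-1.53) and higher than the 4 h and 0 h cultures (2.85 and 2.91). ENO2, an enolase counted among the neuronal genes, followed the same order, with -1.33 at 24 h, 2.12 and 2.22. P4HA1, a prolyl hydroxylase, was 3.44-fold lower at 24 h (-1.78) and not called against the others (0.43 and 0.19), its OCI-AML3 level going from 34.5 CPM at 4 h to 160.1 at 24 h.

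HSPA5 and CALR were lower at 24 h than at 4 h in OCI-AML3. HSPA5 was at 426 ± 9.64 CPM there at 24 h, 703 ± 28.8 at 4 h and 648 ± 25.4 at 0 h, which gave HEK293T log2 fold changes of 0.09, -0.64 and -0.52. CALR passed the threshold against the 4 h cultures (-1.15). STC2, a secreted glycoprotein, and PLOD2 were called higher against all 3 references, with log2 fold changes for STC2 of 3.14, 6.13 and 5.90. VLDLR, a lipoprotein receptor, was called lower against all 3 (-2.82, -1.18 and -1.22), and PPP1R15A (GADD34), which reverses the PERK signal, against the 24 h cultures alone (-1.67, then -0.89 and -0.90). Of the ER chaperone list 9 were lower against the 4 h cultures where 14 were lower at 24 h.

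**Figure D5:**
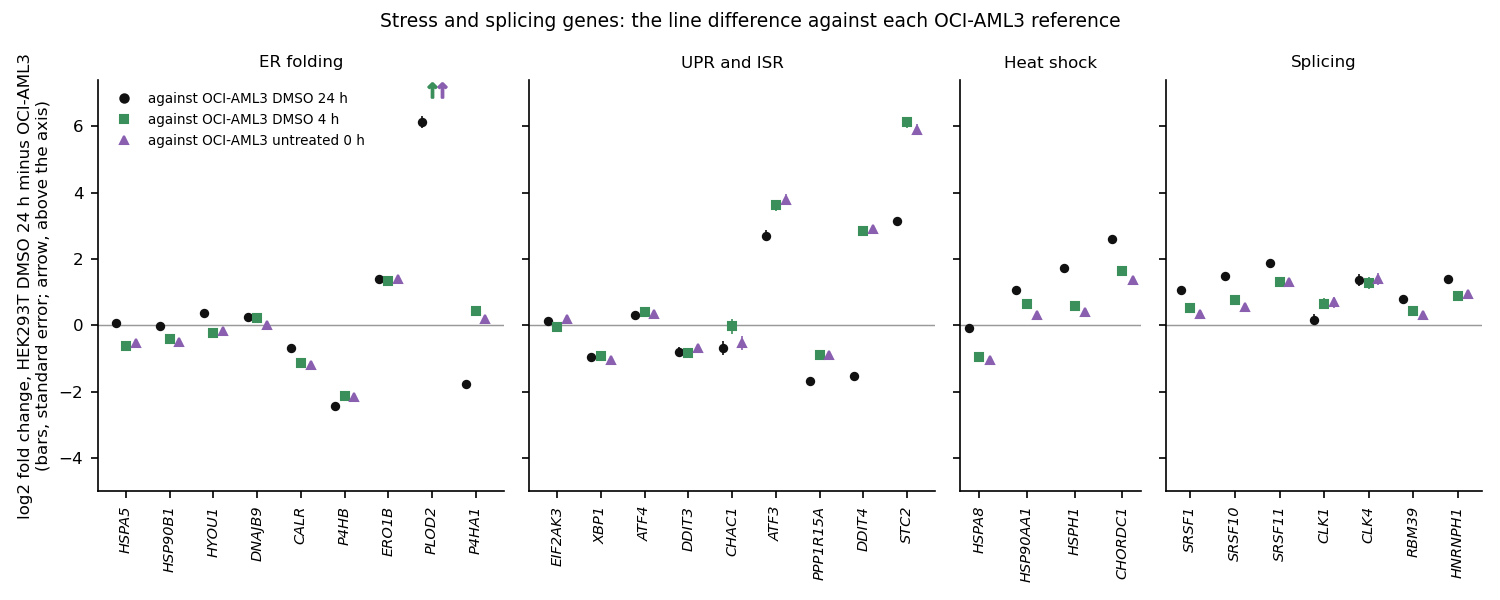
Log2 fold change of HEK293T at 24 h minus OCI-AML3 taken at 24 h (black circles), at 4 h (green squares) or untreated at 0 h (purple triangles) for ER folding, UPR, heat shock and splicing genes, with bars for 1 SE and arrows for PLOD2 values above the axis. The 3 symbols of a gene share the HEK293T libraries. DDIT4 and P4HA1 cross 0 between references, while ATF4 stays between 0.32 and 0.41.

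Cytosolic heat shock genes were higher in HEK293T for 11 of 31 tested and lower for 6. HSPA1A and HSPA1B, near-identical copies of inducible HSP70, were read in opposite directions, HSPA1B at 1134 ± 57.3 CPM in HEK293T against 30.7 ± 4.83 and HSPA1A at 3.48 ± 0.149 against 124 ± 8.14, a division between copies that the counting cannot be relied on to make. Their sum was 1138 ± 57.3 CPM in HEK293T and 154 ± 12.3 in OCI-AML3, a ratio of 7.38. HSPA4L, an HSP110-type exchange factor, was 11.2-fold, CHORDC1, an HSP90 cochaperone, 6.14-fold and BAG2 4.17-fold higher. The small heat shock protein HSPB1 was 3.34-fold lower and the J protein DNAJA4 19.4-fold. HSPH1, HSPA8 and HSP90AA1 were chosen after their values were seen. HSPH1 was higher at 24 h (1.73) and not called against the 4 h and 0 h cultures (0.59 and 0.39), and HSP90AA1 (1.06) was lost against the 4 h cultures (0.63) and after GC correction (0.98). HSPA8, the constitutive HSP70, was equal at 24 h (-0.08, SE 0.08), with OCI-AML3 at 1676 CPM at 24 h, 3069 at 4 h and 3286 at 0 h. After GC correction or against the 4 h cultures 5 heat shock genes were higher.

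Oxidative stress genes under NRF2 gave 6 higher and 9 lower of 29 tested (median log2 fold change -0.26, or 0.11 without TMM scaling), and 5 and 6 after GC correction. HMOX1, heme oxygenase 1, was at 15.6, 17.9 and 15.4 CPM in HEK293T and 0.358, 0.531 and 0.540 in OCI-AML3 (5.07, SE 0.27), and GCLC, which makes glutathione, was 4.23-fold higher. NQO1, a quinone reductase and common readout of NRF2, went the other way, at 4.63, 5.71 and 4.95 against 46.9, 45.9 and 45.8 CPM (-3.18, SE 0.12). FTL, ferritin light chain, was 10.7-fold lower in HEK293T, at 211 ± 12.4 against 2265 ± 222 CPM, and the aldo-keto reductases AKR1C1 and AKR1C3 had 2 counts each over the HEK293T libraries against 5.32 ± 0.589 and 10.8 ± 1.75 CPM. Targets of NRF2 thus stood on both sides. ABCC2, a transporter, was 6.33-fold higher at 24 h and not called against the 4 h cultures (0.57).

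Of SR proteins and their kinases 10 were called higher and 0 lower of 27 tested (7 and 1 after correction for transcript length), with a median log2 fold change of 0.61 against 0.10 over all genes. The share of 10 in 27 stands beside 27.8% of all genes called higher. Without TMM scaling 12 were higher and 0 lower, after GC correction 5 were higher and against the 4 h cultures 4. SRSF1, the SR protein that the study follows, was read at 730.3, 733 and 774 CPM in HEK293T and 341, 343 and 384 in OCI-AML3, a log2 fold change of 1.07 (SE 0.06, adjusted p = 2e-13). The groups did not overlap, but the call lay near the threshold and was lost against OCI-AML3 at 4 h (0.51) and 0 h (0.35), where SRSF1 was at 523 ± 14.4 and 583 ± 14.1 CPM, and after GC correction (0.49). SRSF11 was at 437, 430.0 and 459.6 against 117, 126 and 116 (1.89, SE 0.09) and remained called in each of these. SRSF12, a tissue-restricted SR protein, was at 12.1 ± 1.19 CPM against 3 counts over OCI-AML3, and SRSF10 was 2.82-fold higher (0.77 after GC correction). CLK1, the kinase placed by the study between PERK and SRSF1, overlapped between the lines at 67.1, 68.7 and 74.0 and 60.8, 77.0 and 48.2 CPM (0.17, SE 0.16, adjusted p = 0.33). Its paralog CLK4 was 2.59-fold higher (0.67 and not called after GC correction).

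The other general splicing genes differed little. Of 36 hnRNP and related genes 3 were higher, 4 lower and 29 not called, and without TMM scaling 12 were higher. Against the OCI-AML3 cultures at 4 h 0 were higher, and against those at 0 h 1 was. HNRNPH1 was at 938, 968 and 999 CPM against 369, 377 and 347 (1.41, SE 0.08, or 0.71 and not called after GC correction), while TAF15 (1.06) and MATR3 (1.01) lay at the threshold. MATR3 lost its call without HEK293T replicate 1 (1.00) or 3 (0.93) or OCI-AML3 replicate 3 (0.89), and TAF15 without HEK293T replicate 2 or OCI-AML3 replicate 3 (0.98 in both cases), so that 1 hnRNP gene was higher without OCI-AML3 replicate 3 and 0 were after GC correction. PCBP4, an RNA-binding KH protein, was 4.89-fold, HNRNPUL2 3.75-fold, RALY 3.10-fold and PCBP1 2.38-fold lower (-0.94 and not called after GC correction). Of 88 core spliceosome genes 81 were not called, 5 higher and 2 lower, and without TMM scaling 14 were higher and 0 lower. PRPF39 of the U1 particle was 4.04-fold, SNRNP48 of the minor spliceosome 3.91-fold and U2SURP 3.09-fold higher (0.91 and not called after GC correction), and PDCD7 of the minor spliceosome 2.48-fold lower. DDX46 and XAB2 lost their calls against the 4 h cultures (0.37 and -0.84) and after GC correction, which left 2 core genes higher.

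Tissue-restricted regulators of splicing and RNA processing gave 22 higher and 7 lower of 44 tested, or 9 and 6 under the study's filter. As with the identity genes, members at 0 in OCI-AML3 passed the filter only through HEK293T and had to differ. These counts therefore only describe the list. LIN28B, a repressor of let-7 processing, was at 96.9, 98.6 and 106 CPM, RBM20, a splicing factor of muscle, at 29.2, 31.7 and 29.1 CPM and MSI1 (musashi 1) at 17 ± 0.821 CPM in HEK293T, all with 0 counts in OCI-AML3. PTBP2, the neuronal PTB protein, was at 37.0, 37.8 and 41.0 CPM in HEK293T and 8.89, 12.3 and 7.95 in OCI-AML3 (1.98, SE 0.15), whereas PTBP1 (-0.37) and PTBP3 (0.01) were not called. CELF2 was at 13.2, 12.8 and 15 CPM in HEK293T against 153, 147 and 144 in OCI-AML3 (-3.44, SE 0.08) and CELF1 was not called (0.83). IGF2BP2, which binds mRNA, and ZCCHC24 were 3.34-fold and 3.15-fold lower in HEK293T.

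Genes whose splicing the study follows, and the decay factor UPF1, were expressed in both lines. Their total levels differed by 0.01 to 1.34 on the log2 scale. RBM39 was at 352, 339.7 and 359.8 CPM in HEK293T and 202, 213 and 193 in OCI-AML3 (0.79, SE 0.08), and ARIH2, a ubiquitin ligase, at 187, 183 and 188 against 70.6, 75 and 75.1 (1.34, SE 0.05, adjusted p = 1.1e-16). PRR3 was 0.43 (SE 0.08) and AP3S2 0.75 (SE 0.10). EIF4A2 (0.01, SE 0.08) and the decay factor UPF1 (0.04, SE 0.09) were near 0. ARIH2 was the one of these 6 called, and RBM39 and AP3S2 were called as well without TMM scaling. These are gene totals, which do not tell isoforms apart.

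Neighbouring genes on a chromosome were also compared. There were 276 runs of at least 4 consecutive tested protein-coding genes called in one direction, 187 higher and 89 lower, with 1438 genes. Where 50.6% of genes are called, runs of this length also arise among unrelated neighbours, and no expected number was computed. The longest were 17 genes on chromosome 18 (26454910 to 35267133), which holds the cadherins CDH2, DSC2, DSC3 and DSG2 (median log2 fold change 4.26), 17 on chromosome X (103628704 to 107651993, median 4.33) and 16 on chromosome 6 (111660332 to 116932161, median 3.10). By chromosome, the median over all genes was highest on X (0.95, or 0.79 after GC correction) and lowest on 19 (-0.48, or -0.19) and 8 (-0.43, or -0.64). Copy number was not measured, and its part in these medians was not tested.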

How the data were processed

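Polyadenylated RNA of 21 samples was sequenced as paired-end reads, and 6 libraries are compared here. The authors used STAR for alignment on GRCh38 and RSEM for counting and deposited expected counts of 60671 genes without scaling or filtering. Of the values of a library 3.54 to 4.18% were not whole, and all were rounded. RSEM divides reads that align to several genes, so near-identical genes are uncertain.

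The test covered the 15628 genes that reached 1 CPM in 3 or more of the 6 libraries, in place of the study's filter of 1 CPM in 8 of 21 libraries, with edgeR's quasi-likelihood test (edgeR 4.0.16, R 4.3.3) on TMM-scaled counts of all 7 groups and Benjamini-Hochberg adjustment. SE is the log2 fold change over the square root of F. Thresholds were an adjusted p of 0.05 and a log2 fold change of 1. The fit was tested on simulated data with known changes. Symbols and positions are from GENCODE 44, matched by Ensembl ID for 60401 genes.

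The lists, paralog sets and groups were chosen with earlier results of these data known. Named genes are the 12 protein-coding genes with the largest ratio in each direction among called genes whose libraries do not overlap, up to 4 called members of each list farthest from 0 in each direction, the genes the study names, all members of the paralog sets and HOX genes with at least 1 CPM in a group. For the 12 largest ratios, a group with at most 3 counts of a gene was set at 3 counts. SPI1, CEBPA, PRTN3, AZU1, TYROBP, CD14, ITGAV, HSP90B1, CALR, CANX, PDIA6, CRELD2, DDIT4, HSPH1, HSPA8, HSP90AA1, members left over from a count (IRF3, WT1, LHX1) and markers too low to test were chosen after their values were seen.

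The alternatives were limma voom (limma 3.58.1), DESeq2 1.42.0 and its size factors, no TMM scaling, a filter of 1 count and the study's filter, the 6 libraries alone, a replicate block, OCI-AML3 at 4 h or 0 h as the reference, the 10 most abundant genes left out and each library left out. Corrections for GC content and transcript length (lowess, span 0.3) were added after the data had been seen. Isoforms were not analysed here. Most list members are counted but not named, and a few that the rule gives are not reported here.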

Additional observations from a re-analysis of the deposited data

How the results depend on the processing

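The 253 named genes called kept their direction in every alternative that tested them except DDIT4, ENO2 and P4HA1, which turned with the OCI-AML3 reference. Against the 4 h and 0 h cultures the log2 fold changes were 2.85 and 2.91 for DDIT4, 2.12 and 2.22 for ENO2, and 0.43 and 0.19 for P4HA1, and the cause was not tested. Of the 253, 217 kept their call throughout. Counts of genes called higher and lower were 4351 and 3563 with limma voom, 4293 and 3596 with DESeq2, 5483 and 2821 without TMM scaling, 4099 and 3440 after GC correction, 4353 and 3501 after length correction, 3980 and 3133 against the 4 h cultures, and 4261 to 4331 and 3564 to 3629 with 1 library left out. Every gene with at least 1 count gave 5990 and 4700. The study's filter of 1 CPM in 8 of the 21 libraries gave 2847 higher and 3488 lower, since most of the libraries are OCI-AML3 and genes read in HEK293T alone fall away by construction. It brought the calls that were higher to 44.9%. Replicates with the same number did not deviate together across the lines (correlations from -0.018 to 0.018), and a fit with the replicate block gave 4345 and 3566. Of the 299 named genes, calls without TMM scaling were lost by ALG3, COPE, CREB3L2, ENO2, MEIS1, MYC, MYCL, PCBP1, PDCD7, SRPRA, TMEM258, TUBB6, TYMS and XAB2 and gained by AP3S2, CELF1, HOXB8, RBM39 and TUBB4A. After GC correction 20 lost their call, HNRNPH1, PCBP1 and U2SURP among them, and HOXB8, ITGB1, STMN1, TUBB4A and XBP1 gained one. Of 950 counts of lists under the alternatives 892 were within 1.5 times the main count. Genes with a few counts in a group have folds limited by counting, and no HEK293T culture at another time was analysed here.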
